A study of Mus musculus with 6 samples.

Results

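The genes described here are 10 imprinted genes that control growth: H19, Igf2, Igf2r, Meg3, Peg3, Ndn, Dlk1, Grb10, Plagl1 and Mest. They were chosen by gene symbol, and their values come from array probe sets annotated to exactly 1 of these symbols. There were 37 such probe sets of 45037, for 9 of the 10 genes, of 18192 genes in all. The only probe set of H19 on the array is also annotated to Mir675, a microRNA gene that lies within H19 in RefSeq, so H19 was not tested. Each gene is represented by its lead probe set, the one with the highest mean over the 6 arrays.

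At an imprinted gene only the copy inherited from 1 parent is active in most tissues, because a methylation mark set in the egg or sperm is kept at a control region. Igf2, Dlk1, Peg3, Mest, Ndn and Plagl1 are active on the paternal chromosome, and H19, Meg3, Igf2r and, in most tissues, Grb10 on the maternal one. Many of them act on growth through insulin-like growth factor (IGF) signalling, and several are known to be highly expressed in long-term blood stem cells and to fall as these cells divide and differentiate.

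The series asked how EVI1, the zinc finger protein made from the Mecom gene and found at high level in a subset of myeloid leukaemias, changes expression in blood progenitors. Lineage-negative progenitors, a cell fraction from which mature blood cells have been removed, came from C57BL/6J mice with the doxycycline-responsive transactivator rtTA in the Rosa26 locus. The medium of all cells held 50 ng/ml each of stem cell factor, Flt3 ligand and interleukin-11, with interleukin-3 at 20 ng/ml. The EGFP-positive group (3 arrays) was transduced with the lentiviral vector pRRL.TET.EVI1.IRES.EGFP, in which doxycycline switches on EVI1 together with the fluorescent protein EGFP, and received doxycycline (1 µg/ml) the day after transduction, 20 hours before sorting for high EGFP. The EGFP-negative group (3 arrays) is labelled untransduced, whereas the design text describes a sort of the same transduced and doxycycline-treated culture for negative or low EGFP, and so implies that both groups had doxycycline. A description field also calls the EGFP-positive samples untransduced, so the groups follow titles and source names. Age and sex of the mice are not given in the sources used here. The labels do not say whether the replicates are separate cultures or mice, so the p-values reflect the spread of these samples alone, and that spread may be technical.

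Each array measured log2 expression of a whole sorted fraction, so fewer cells of a type and less RNA per cell cannot be told apart. Array medians ran from 5.11 to 5.14, and Pearson's r across probe sets was about 0.995 among EGFP-negative arrays, 0.989 among EGFP-positive arrays and 0.968 to 0.969 between groups. Mecom was called at 0 of its 3 probe sets (limma, 0 at an unadjusted p under 0.05 too). The brightest had a mean of 8.26 ± 0.09 without EGFP and 7.97 ± 0.20 with it (SD, n = 3), and the others lay under the bacterial controls described below. Whether these probe sets match the vector's EVI1 was not given in the sources used here. Mecom therefore does not check the labels. As a sign of RNA quality, the log2 signal of the 3' probe set of Actb exceeded that of the 5' probe set by 0.80 ± 0.05 (SD, n = 3) without EGFP and by 1.00 ± 0.03 with it. This gap moved with the groups, and its part in the results was not tested. Of all genes, 33.2% passed the threshold (limma, Benjamini-Hochberg adjusted p under 0.05), 16.0% higher and 17.2% lower in EGFP-positive cells. The highest value of 27 bacterial control probe sets on any array, 3.61, serves as a background ceiling.

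Igf2r, Grb10 and Plagl1, which had a called rise, and Dlk1, where the probe sets disagreed, are shown by the 250 bases before their transcription start, from RefSeq on GRCm38.p6. They are printed 5' to 3' in the direction of the gene, with capitals for CG dinucleotides, the sites at which DNA methylation can be written. Whether these windows lie in the control regions that carry the imprinting marks was not analysed, and methylation was not measured. For Grb10 the start with more CG dinucleotides of the 2 in the table is shown.
Igf2r, chr17:12769707-12769956, minus strand: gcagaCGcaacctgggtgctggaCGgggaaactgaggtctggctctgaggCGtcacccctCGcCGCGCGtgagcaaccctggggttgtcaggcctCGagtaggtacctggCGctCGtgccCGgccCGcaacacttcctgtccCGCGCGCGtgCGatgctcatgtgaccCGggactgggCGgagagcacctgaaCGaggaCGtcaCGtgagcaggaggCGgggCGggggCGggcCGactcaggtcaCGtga
Grb10, chr11:12037421-12037670, minus strand: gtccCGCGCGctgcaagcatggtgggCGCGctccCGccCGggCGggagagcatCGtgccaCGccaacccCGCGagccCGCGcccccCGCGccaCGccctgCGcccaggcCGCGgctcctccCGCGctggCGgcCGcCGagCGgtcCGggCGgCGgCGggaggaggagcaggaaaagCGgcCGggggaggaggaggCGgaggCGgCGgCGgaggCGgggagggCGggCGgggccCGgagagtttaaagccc
Plagl1, chr10:13090582-13090831, plus strand: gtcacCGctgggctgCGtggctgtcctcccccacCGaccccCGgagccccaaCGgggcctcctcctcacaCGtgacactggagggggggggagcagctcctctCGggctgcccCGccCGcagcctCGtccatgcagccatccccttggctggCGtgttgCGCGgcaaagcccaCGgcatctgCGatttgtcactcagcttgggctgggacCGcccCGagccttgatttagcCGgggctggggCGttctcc
Dlk1, chr12:109452573-109452822, plus strand: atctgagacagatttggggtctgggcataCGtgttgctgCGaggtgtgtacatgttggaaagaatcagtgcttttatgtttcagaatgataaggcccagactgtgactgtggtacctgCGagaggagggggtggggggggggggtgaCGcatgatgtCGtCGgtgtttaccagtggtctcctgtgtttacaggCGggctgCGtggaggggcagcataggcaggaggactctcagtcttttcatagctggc
These stretches held 27 CG dinucleotides for Igf2r, 40 for Grb10, 19 for Plagl1 and 8 for Dlk1, against a median of 6 over 32841 stretches of the same length. For the Grb10 start shown, which was picked for its CG dinucleotides, 98.7% of these stretches had fewer, and for its other start, with 8, 57.0%. For Igf2r the share was 91.4%, for Plagl1 80.3% and for Dlk1 57.0%. The letters CAAGATA, part of the motif bound by the first zinc finger group of EVI1, were found on either strand in 2.03% of all stretches, and AGATGAG, part of that of the second, in 3.81%. Neither was found in any of the 16 stretches that the table holds for the 9 measured genes, which says only that these letters are not in these windows.

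Of the 9 genes, 3 rose in EGFP-positive cells and 0 fell, while 6 did not pass the test (limma, Benjamini-Hochberg adjusted p over 18192 genes). That is 3 of 9 beside 16.0% of all genes higher, and 0 of 9 beside 17.2% lower. The median difference was 0.43 on the log2 scale, against 0.02 over all genes. In 4 of the 9, Mest besides the 3, all EGFP-positive arrays lay above all EGFP-negative arrays at the lead probe set, as in 23.8% of all genes. In 0 of the 9 they all lay below, as in 24.4% of all genes. Over the 37 probe sets, 5 were called higher and 2 lower, beside 11.6% and 12.6% of all probe sets (24.1% in either direction). All EGFP-positive arrays lay above all EGFP-negative arrays at 9 probe sets and below them at 4, beside 20.4% and 20.7% of all probe sets. At 20 of the 37 both group means lay under the ceiling, beside 32.4% of all probe sets.

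**Figure D1:**
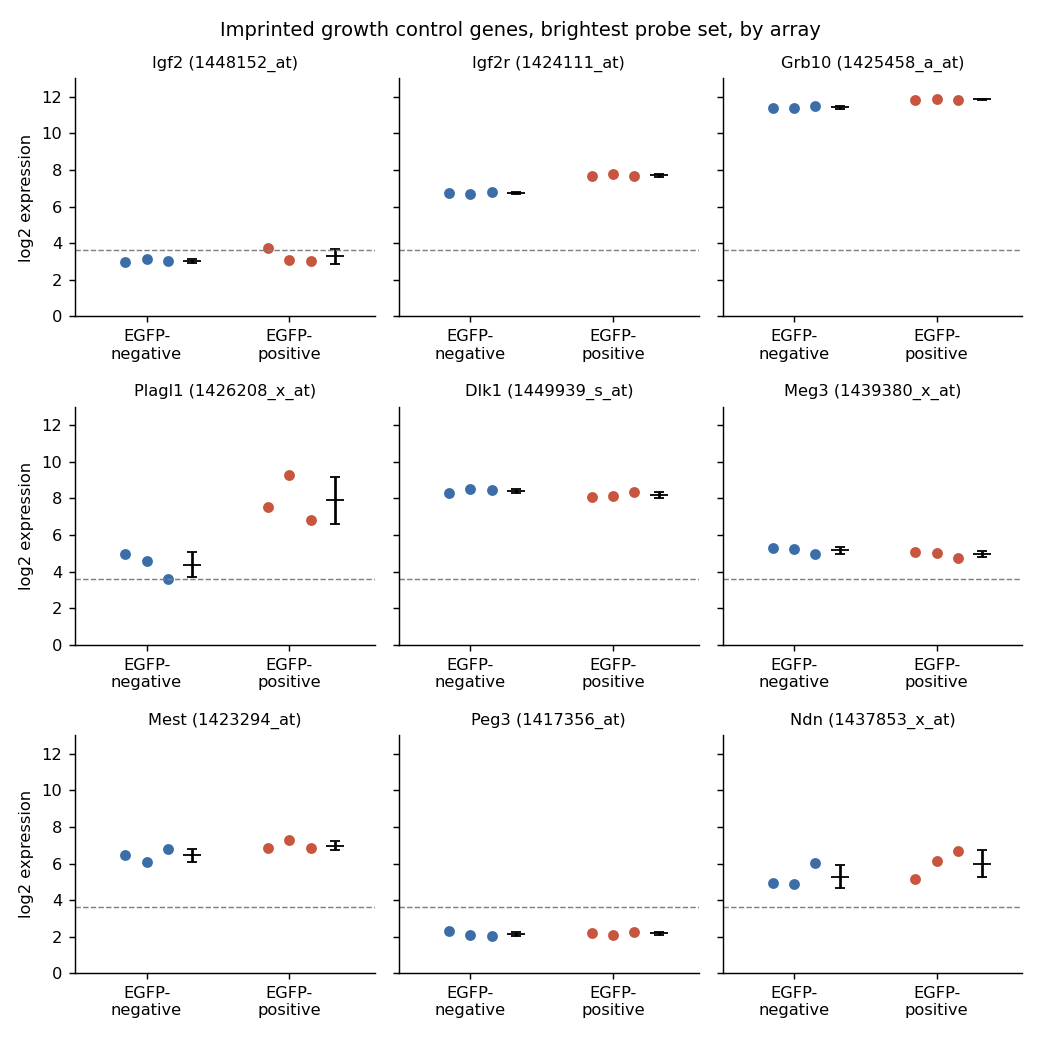
Log2 expression (y axis) of the lead probe set of each measured gene on each array, with EGFP-negative arrays in blue, EGFP-positive arrays in red, group mean and SD (n = 3) in black, and the bacterial control ceiling of 3.61 dashed. Igf2r, Grb10, Plagl1 and Mest have EGFP-positive arrays that all lie above the EGFP-negative ones, and Igf2 and Peg3 have both group means under the ceiling.

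Igf2, the fetal growth factor of the group, lay under the bacterial ceiling by both group means. Its lead probe set (1448152_at) read 2.96, 3.16 and 3.01 on EGFP-negative arrays and 3.74, 3.06 and 3.03 on EGFP-positive arrays. Only EGFP-positive replicate 1 exceeded the ceiling, the groups overlapped, and no fold is given (difference 0.23, SE 0.20, limma adjusted p = 0.45). The remaining probe set, 1415931_at, lay between 1.32 and 2.11 on all arrays. The probe set shared by H19, a growth-restraining noncoding RNA transcribed beside Igf2, and Mir675 read 3.58, 3.02 and 2.94 on EGFP-negative and 3.12, 3.20 and 2.91 on EGFP-positive arrays, all under the ceiling. At these probe sets neither transcript of the H19-Igf2 pair had a group mean above the controls.

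Igf2r rose in EGFP-positive cells. It encodes the receptor that carries IGF2 to the lysosome for degradation and sorts newly made lysosomal enzymes. Its lead probe set (1424111_at) read 6.75, 6.69 and 6.78 on EGFP-negative arrays and 7.68, 7.81 and 7.66 on EGFP-positive arrays. The gap between the groups was far wider than the spread within either: 6.74 ± 0.05 against 7.71 ± 0.08 (SD, n = 3), a 1.96-fold rise (log2 difference 0.97, SE 0.08, limma adjusted p = 0.00037). The second probe set, 1424112_at, read 3.03, 3.22 and 3.43 against 3.46, 3.82 and 3.64, without overlap and near the ceiling, and was not called (difference 0.41, adjusted p = 0.098 over probe sets). A probe set annotated to both Igf2r and its antisense RNA Airn read 3.43 ± 0.15 and 3.59 ± 0.24, under the ceiling by both means, and was left out by the rule.

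Grb10 rose by a small amount from a high signal. It encodes an adaptor protein that binds the insulin and IGF receptors and dampens their signal. At 1425458_a_at, its lead, signals were 11.38, 11.38 and 11.51 on EGFP-negative arrays and 11.84, 11.88 and 11.85 on EGFP-positive arrays. All EGFP-positive arrays were higher, and the rise was 1.35-fold (log2 difference 0.43, SE 0.08, limma adjusted p = 0.0083). Another probe set, 1430164_a_at, had EGFP-positive arrays at 5.99, 4.93 and 5.38 and EGFP-negative arrays at 4.87, 4.91 and 4.46, with no call (difference 0.68, adjusted p = 0.14 over probe sets). The third, 1425457_a_at, was under the ceiling by both means. The call rests on the lead probe set: with the mean of the 3 probe sets the difference was 0.36 (adjusted p = 0.082), and with the most variable one 0.68 (adjusted p = 0.12).

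Plagl1 showed the largest difference of the 9 genes. It encodes a zinc finger transcription factor, also called Zac1, that can halt the cell cycle and that regulates other imprinted genes, Igf2 and H19 among them. Signals at its lead, 1426208_x_at, were 4.94, 4.57 and 3.62 on EGFP-negative arrays and 7.56, 9.31 and 6.83 on EGFP-positive arrays. The groups stood well apart, but each was widely scattered: 4.38 ± 0.68 against 7.90 ± 1.28 (SD, n = 3), an 11.5-fold rise (log2 difference 3.52, SE 0.67, limma adjusted p = 0.0088). Among 18192 genes this rise ranked 66th, while the residual SD of Plagl1 exceeded that of 99.8% of genes.

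The size of the Plagl1 rise depended on the probe set. A second probe set, 1438588_at, read 3.72, 4.02 and 3.94 against 5.01, 5.04 and 4.21 and was also called higher (difference 0.86, adjusted p = 0.045 over probe sets). The third, 1450533_a_at, read 2.78 ± 0.24 and 3.13 ± 0.23, under the ceiling in both groups. The lead probe set is of the _x_at type, which can also bind related sequences. With the mean of the 3 probe sets the difference shrank to 1.58 and was still called (adjusted p = 0.0039), and leaving out each array in turn gave 2.82 to 4.06 with adjusted p of at most 0.036.

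**Figure D2:**
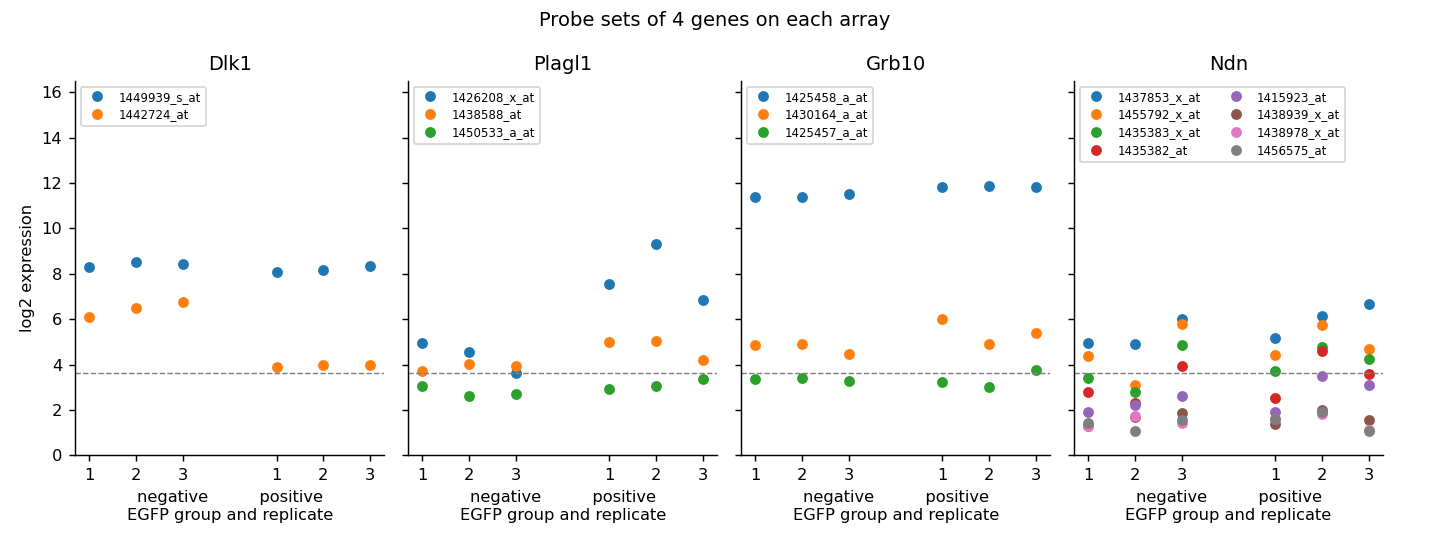
Log2 expression (y axis) at every probe set of Dlk1, Plagl1, Grb10 and Ndn on each array (x axis, replicate 1, 2 and 3 of each EGFP group), 1 colour per probe set, with the ceiling of 3.61 dashed. For Dlk1 the dimmer probe set falls from between 6.11 and 6.76 to between 3.87 and 3.98 while the brighter one stays between 8.07 and 8.51, and for Ndn several probe sets are high or low on the same arrays.

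Dlk1 gave different answers at its probe sets. It encodes a membrane protein with EGF-like repeats that restrains differentiation and is a ligand-like relative of the Notch ligands. The lead probe set (1449939_s_at) read 8.30, 8.51 and 8.45 on EGFP-negative arrays and 8.07, 8.16 and 8.37 on EGFP-positive arrays, with overlap between the groups (difference -0.22, SE 0.11, limma adjusted p = 0.19). The second probe set (1442724_at) read 6.11, 6.48 and 6.76 on EGFP-negative arrays and 3.87, 3.98 and 3.96 on EGFP-positive arrays. That is a 5.72-fold fall without overlap, from 6.45 ± 0.33 to 3.94 ± 0.06 (SD, n = 3, log2 difference -2.52, limma adjusted p = 0.00023 over probe sets). As a gene, Dlk1 was not called by its brightest probe set, and was called lower with the mean of its probe sets (-1.37, adjusted p = 0.00032) or the most variable one (-2.52, adjusted p = 0.00016). The lead probe set is of the _s_at type, which can match transcripts of more than 1 gene. Which part of the transcript either probe set matches was not analysed here.

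Meg3, the noncoding RNA made from the maternal copy of the same region, was dim and not called. At its lead, 1439380_x_at, arrays read 5.31, 5.23 and 4.96 on EGFP-negative arrays and 5.08, 5.04 and 4.75 on EGFP-positive arrays (difference -0.21, SE 0.14, limma adjusted p = 0.30). Of its 11 probe sets, 6 lay under the ceiling by both means, and differences over the 11 ran from -0.66 to 0.62, the upper end under the ceiling. Above it, 1452905_at (-0.66) and 1452183_a_at (-0.50) had all EGFP-positive arrays lower, without a call (limma adjusted p = 0.16 and 0.10 over probe sets). The difference at 1436057_at was 0.13, with overlap. At 1426758_s_at, EGFP-positive arrays (4.45, 4.27 and 4.30) were all below EGFP-negative arrays (4.78, 4.90 and 4.77), and this probe set was called lower (-0.47, adjusted p = 0.017 over probe sets). The only other called probe set, 1429256_at, was called higher (0.62, adjusted p = 0.0100) with means of 1.85 and 2.48, under the ceiling, so no direction is taken from it.

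Mest, an enzyme of the endoplasmic reticulum with an alpha/beta hydrolase fold, was not called. Its single probe set (1423294_at) read 6.46, 6.06 and 6.80 on EGFP-negative arrays and 6.84, 7.26 and 6.85 on EGFP-positive arrays. The groups did not overlap, but EGFP-negative replicate 3 and EGFP-positive replicate 1 lay only slightly apart. The difference of 0.54 (SE 0.22, 95% confidence interval 0.02 to 1.06) missed the threshold after adjustment (limma adjusted p = 0.11).

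Peg3, a zinc finger protein that takes part in growth and cell death, lay under the ceiling at all 5 probe sets on every array. Its brightest, 1417356_at, read 2.29, 2.12 and 2.04 on EGFP-negative and 2.22, 2.07 and 2.26 on EGFP-positive arrays, and the highest value at any of the 5 was 2.61. No fold is given (difference 0.03, limma adjusted p = 0.84).

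Ndn scattered widely within both groups and was not called. It encodes necdin, a growth suppressor of the MAGE family that is known to restrain division of blood stem cells. The brightest of its probe sets, 1437853_x_at, read 4.96, 4.89 and 6.01 on EGFP-negative arrays and 5.17, 6.16 and 6.67 on EGFP-positive arrays, with overlap (difference 0.71, SE 0.46, limma adjusted p = 0.30). Its residual SD exceeded that of 98.9% of genes. The scatter was shared among probe sets: of the 8, EGFP-negative replicate 3 was the highest of its group at 7, and EGFP-positive replicate 2 at 7. EGFP-positive replicate 1 was the lowest of its group at 6. All 8 differences were above 0, from 0.02 to 0.71, none was called, and 5 of the 8 probe sets lay under the ceiling by both means.

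**Figure D3:**
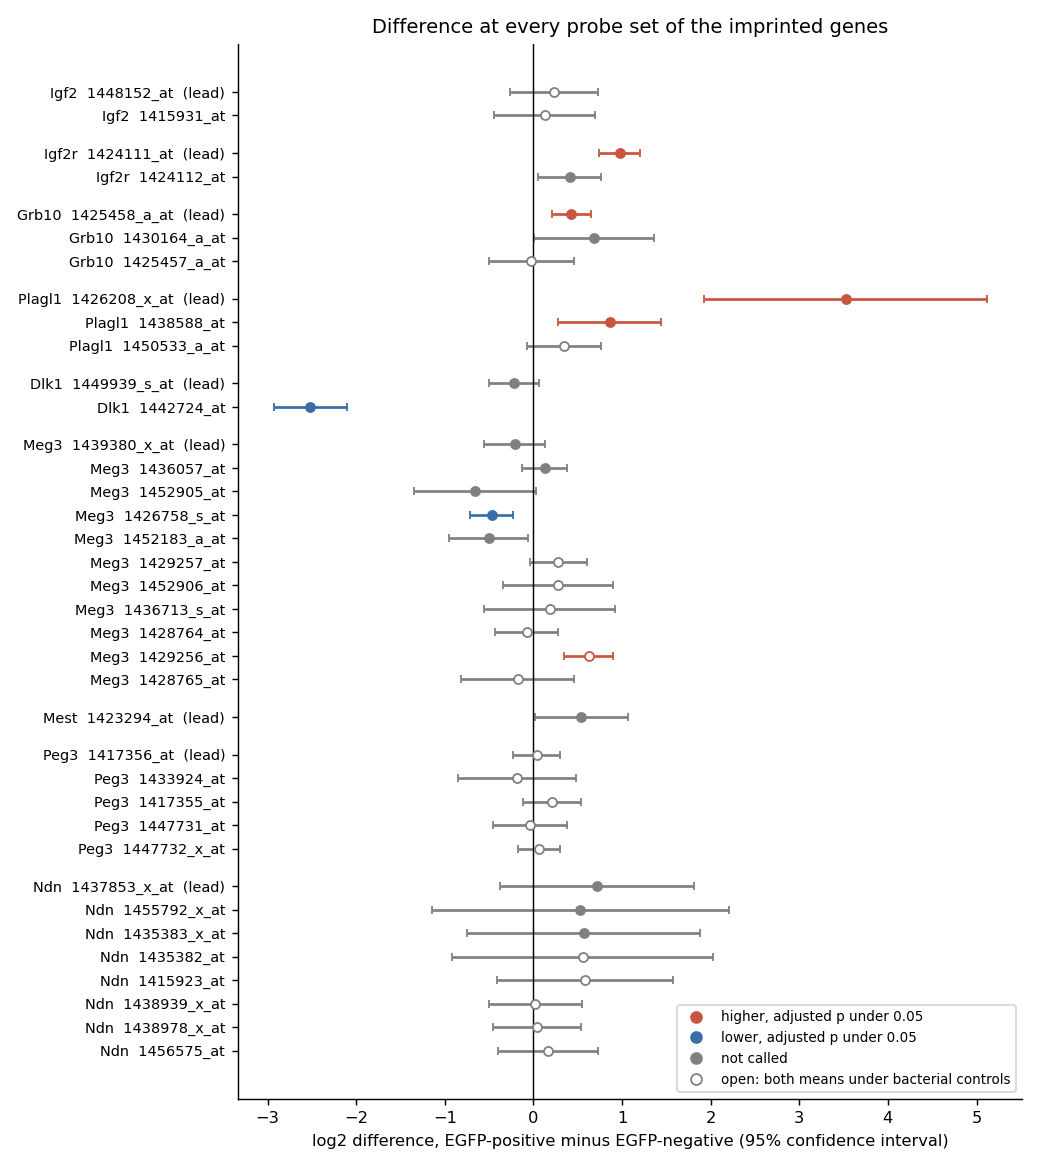
Difference in log2 expression, EGFP-positive minus EGFP-negative (x axis, with 95% confidence interval from limma, n = 3 per group), at each of the 37 probe sets, in red where called higher, blue where called lower, grey where not called, and open where both means lie under the ceiling. The 5 red and 2 blue points include the called probe sets of Igf2r, Grb10, Plagl1 and Dlk1. For Meg3 they include 1 probe set of each direction, the higher one with both means under the ceiling.

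Other genes listed as imprinted included rises and falls. The arrays do not tell the parental copies apart, so whether a listed gene is imprinted in these cells was not measured. Of a list of 60, 51 were measured, of which 13 rose, beside 16.0% of all genes, 8 fell, beside 17.2% of all genes, and 30 did not pass. Of the 51, 15 had both means under the ceiling. The median difference was 0.06, against 0.02 over all genes. Slc22a18, a member of an organic cation transporter family from the region next to H19 and Igf2, read 5.51, 5.42 and 5.22 on EGFP-negative and 8.26, 8.39 and 8.62 on EGFP-positive arrays, an 8.20-fold rise (log2 difference 3.04, SE 0.13, limma adjusted p = 3.7e-05). Both of its probe sets were called higher. Blcap, a small membrane protein, rose 1.97-fold, from 10.71 ± 0.04 to 11.70 ± 0.04 (SD, n = 3, adjusted p = 0.00024).

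In the Sgce-Peg10 region 3 of 6 measured genes rose, beside 16.0% of all genes, and 1 fell, beside 17.2%. Sgce, which encodes epsilon-sarcoglycan, read 7.34, 7.34 and 7.45 on EGFP-negative arrays and 8.64, 8.54 and 8.70 on EGFP-positive arrays, a rise of 2.38-fold (limma adjusted p = 0.00016). Ppp1r9a, which encodes neurabin, a protein phosphatase partner, rose 3.16-fold, from 7.55 ± 0.04 to 9.21 ± 0.35 (adjusted p = 0.00088). With the mean of its 5 probe sets the Ppp1r9a difference was 1.10 in place of 1.66, and still called. Tfpi2, a protease inhibitor gene of the same region, went the other way, from 5.17, 5.04 and 5.75 to 2.33, 2.53 and 2.73, at least 3.27-fold lower (adjusted p = 0.00022).

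Among the neighbours of the 9 genes, Rian fell and Airn rose. Rian, a noncoding RNA downstream of Meg3, read 6.04, 5.99 and 5.86 on EGFP-negative and 4.89, 4.64 and 4.81 on EGFP-positive arrays, a fall of 2.27-fold (limma adjusted p = 0.00037). The other 3 of its 4 probe sets were not called and lay under the ceiling by both means, and with the mean of the 4 the difference was -0.46 in place of -1.18 and still called. Airn, the antisense RNA that starts within Igf2r on the paternal chromosome, was chosen after its values were seen. It read 5.37, 5.27 and 5.15 against 5.89, 5.73 and 6.15, a 1.58-fold rise beside that of Igf2r (adjusted p = 0.010), with 2 of its 5 probe sets called. With the mean of its probe sets Airn was 0.30 and not called (adjusted p = 0.11). Beside Peg3, its neighbours Usp29 and Zim1 had both means under the ceiling. Zim2, the remaining measured gene of that region, read 3.32 and 3.62 by group mean and was not called, and Ddc, the neighbour of Grb10, was under the ceiling by both means.

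In the H19-Igf2 and Kcnq1 region 13 genes were measured. Of these, Slc22a18, Cdkn1c and Kcnq1ot1 were called higher, beside 16.0% of all genes, and Tspan32, Tssc4 and Nap1l4 lower, beside 17.2%. They are named as a set of calls and not by the naming rule. Without EGFP-negative replicate 2 or 3, or with the replicate block, 2 genes were higher and 1 lower, since Kcnq1ot1, Tssc4 and Nap1l4 lost their calls. Kcnq1ot1 and Nap1l4, with differences of 0.33 and -0.28, also lost them without EGFP-negative replicate 1 or EGFP-positive replicate 1 or 2. Both calls were lost with the most variable probe set of each gene, and that of Kcnq1ot1 with the mean of its probe sets. Tested over all probe sets, 0 of the 6 probe sets of Kcnq1ot1 were called (limma adjusted p = 0.057 at its lead). Slc22a18, Cdkn1c and Tspan32 kept their calls without any single array.

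Gatm and Commd1, genes of the imprinted list outside these regions, also fell. Gatm, an enzyme of creatine synthesis, went from 9.67 ± 0.17 to 8.35 ± 0.05, 2.50-fold (limma adjusted p = 0.00030), and Commd1, a factor in copper handling, from 9.35 ± 0.08 to 8.46 ± 0.18, 1.85-fold (adjusted p = 0.0019; SD, n = 3).

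**Figure D4:**
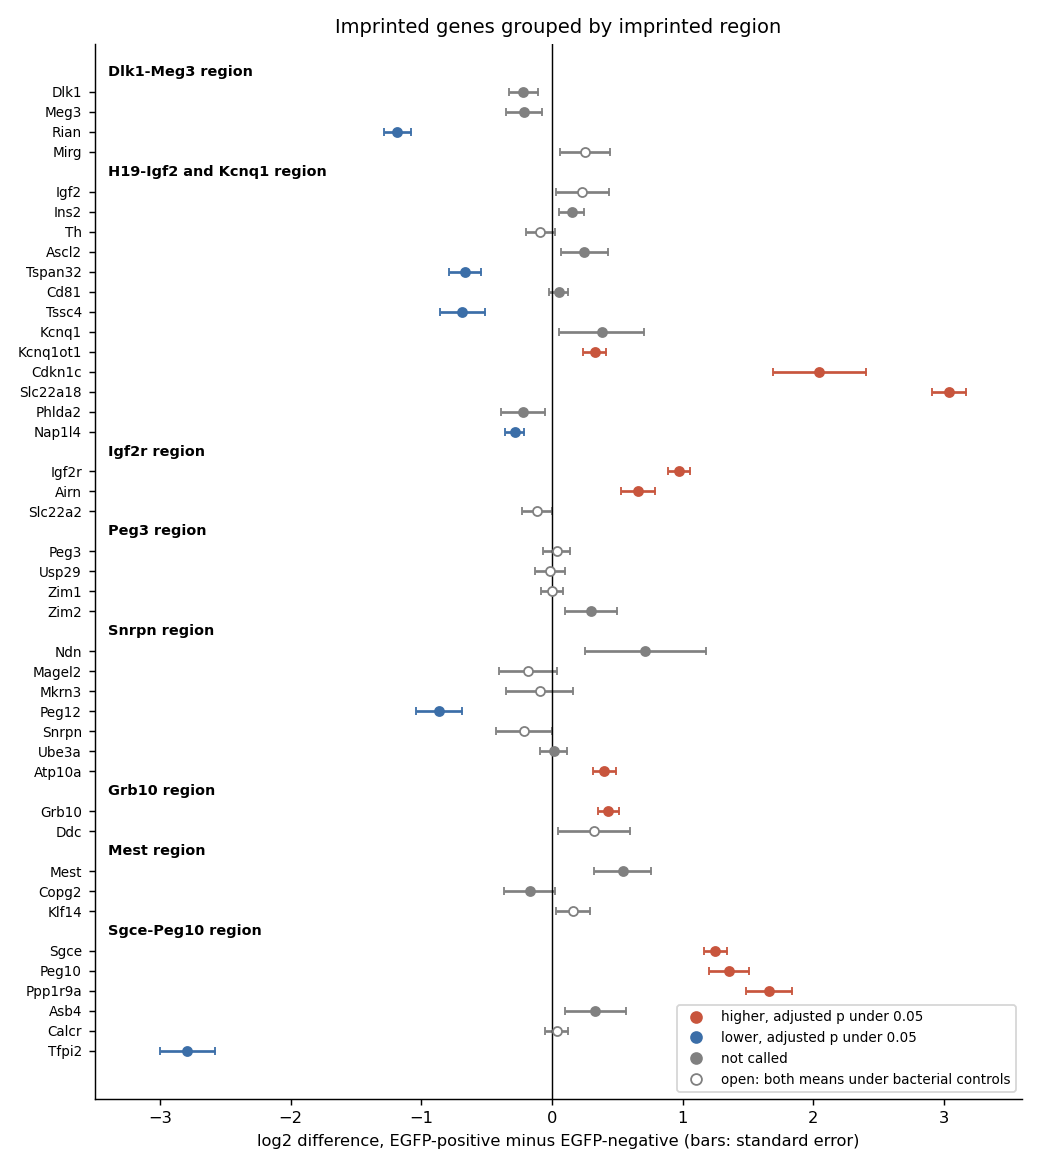
Difference in log2 expression, EGFP-positive minus EGFP-negative (x axis, bars are standard errors from limma), for 42 imprinted genes by lead probe set, grouped by 8 imprinted regions, in red where called higher, blue where called lower, grey where not called, and open where both means lie under the ceiling. The H19-Igf2 and Kcnq1 region has 3 of 13 genes higher and 3 lower, of which 2 and 1 stay called without EGFP-negative replicate 2 or 3. In the Sgce-Peg10 region 3 of 6 genes are higher and 1 is lower. Over all genes 16.0% are higher and 17.2% lower.

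Another list held genes of IGF signalling and the Igf2bp genes, which encode RNA-binding proteins. Of its 26 measured genes 6 rose, beside 16.0% of all genes, 6 fell, beside 17.2%, and 14 did not pass. The median difference was 0.11. Igfbp5, a secreted IGF binding protein, read 11.14, 11.12 and 11.22 on EGFP-negative and 8.91, 8.80 and 8.88 on EGFP-positive arrays, a 4.91-fold fall (limma adjusted p = 2.3e-05), and Igfbp4 fell 2.72-fold, from 10.24 ± 0.20 to 8.79 ± 0.13 (SD, n = 3), at all 6 of its probe sets. Igf1, the growth factor related to Igf2, fell 1.75-fold, from 8.05 ± 0.14 to 7.24 ± 0.15 (adjusted p = 0.0031), and Pik3r1, a regulatory subunit of PI3-kinase, fell 1.70-fold. With its most variable probe set Igf1 was -1.23 and not called (adjusted p = 0.061).

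Igf1r, the receptor of IGF1 and IGF2, was called higher with a small difference (0.38, limma adjusted p = 0.019) and was chosen after its values were seen. Its call was lost without EGFP-negative replicate 1 or 3 (adjusted p = 0.068 and 0.063), with the replicate block (0.067) and with the most variable probe set (0.57, adjusted p = 0.14). Grb7, an adaptor of the same protein family as Grb10, read 3.71, 4.46 and 4.12 on EGFP-negative and 6.88, 6.66 and 7.31 on EGFP-positive arrays, a 7.23-fold rise (limma adjusted p = 0.00035). Foxo1, a transcription factor held back by insulin signalling, rose 2.24-fold, from 6.89 ± 0.09 to 8.06 ± 0.14 (SD, n = 3), and Shc1, an adaptor of growth factor receptors, 1.94-fold, from 9.36 ± 0.06 to 10.32 ± 0.13. With its most variable probe set Shc1 was not called (1.00, adjusted p = 0.089). The kinase gene Akt2 rose 1.36-fold (adjusted p = 0.015), and its call was lost without EGFP-negative replicate 3 (adjusted p = 0.052), with the mean of its probe sets (0.22, adjusted p = 0.14) and with the most variable one (adjusted p = 0.098).

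A further list, called imprint maintenance genes here, held genes tied to setting, keeping or removing DNA methylation, with the Tet genes on the removing side. It also held genes of histone methylation, such as Eed, Ezh2 and Setdb1, and the DNA-binding factor Ctcf. Of 23 measured genes 4 rose, beside 16.0% of all genes, 6 fell, beside 17.2%, and 13 did not pass. Their median difference was -0.02. Uhrf1, which brings the maintenance methyltransferase to newly copied DNA, read 11.65, 11.78 and 11.71 on EGFP-negative and 10.05, 10.14 and 10.19 on EGFP-positive arrays, a 3.00-fold fall (limma adjusted p = 6.9e-05). Dnmt1, that methyltransferase, fell 1.56-fold, from 12.79 ± 0.04 to 12.15 ± 0.08 (SD, n = 3), at all 3 probe sets. Hells, a chromatin remodeller, fell 2.37-fold, and Dnmt3l, a cofactor of new methylation, 3.30-fold, from 7.02 ± 0.12 to 5.29 ± 0.42.

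Zfp57, a zinc finger protein that protects imprints, rose, whereas the other rises of that list were small at the lead probe set and lost their calls without certain arrays. Zfp57 read 6.21, 5.94 and 5.95 on EGFP-negative and 6.74, 6.82 and 6.64 on EGFP-positive arrays, a 1.62-fold rise (limma adjusted p = 0.0038). Arid4b (0.38), Tet1 (0.34) and Eed (0.32) were called with adjusted p of 0.022, 0.024 and 0.048. Arid4b lost its call without any 1 of 3 arrays, EGFP-negative replicates 1 and 3 and EGFP-positive replicate 2 (adjusted p up to 0.075). Tet1 lost it without any EGFP-negative array or EGFP-positive replicate 3 (up to 0.089), and Eed without any array but EGFP-positive replicate 1 (up to 0.14). With the most variable probe set Arid4b was 0.74 (adjusted p = 0.18), Eed -0.10 (adjusted p = 0.84) and Tet1 0.84, which was still called. Over probe sets, Tet1 was called higher at 3 of its 4, Arid4b at 1 of 6 and Eed at 0 of 2. Ctcf, which binds the H19-Igf2 control region, read 10.70 ± 0.02 and 10.70 ± 0.12 and was not called.

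Marker genes of blood progenitors, mature blood cells, stromal cells and endothelial cells were followed beside the imprinted genes. The blood marker Ptprc (CD45) read 10.74 ± 0.11 and 10.84 ± 0.08 (SD, n = 3) and Gata2 12.89 ± 0.04 and 12.73 ± 0.05, neither called, while Myb fell 1.76-fold (limma adjusted p = 0.00046). Of 9 progenitor markers 0 rose and 5 fell, beside 16.0% of all genes higher and 17.2% lower. Of 7 measured markers of mature cells 0 rose and 3 fell, Cd3e and Itgam among them, beside the same shares of all genes. The summed linear signal of the progenitor list, on the log2 scale, was 14.32 to 14.33 on EGFP-negative and 13.84 to 13.87 on EGFP-positive arrays, and that of the mature cell list 7.34 to 7.52 and 6.64 to 6.84. Of 15 stromal markers 3 rose and 1 fell, beside the same 16.0% and 17.2% of all genes. Of the 15, 9 had both means under the ceiling, among them Dcn, Lum, Col3a1, Pdgfra, Lepr and Cxcl12. The stromal sum was 9.17 to 9.34 without EGFP and 9.79 or more on every array with it, with Fn1 rising from 4.39 ± 0.39 to 9.10 ± 0.07 and Pdgfrb falling from 8.58 ± 0.05 to 7.27 ± 0.27. Fn1 alone set the direction of that sum: without it the sum was 9.11 to 9.28 on EGFP-negative and 8.52 to 8.83 on EGFP-positive arrays. Of 12 endothelial markers 6 rose and 0 fell, beside the same shares of all genes. Of the 12, 6 had both means under the ceiling, which were Emcn, Cldn5, Sox17, Sox18, Ptprb and Robo4. The endothelial sum ran from 9.53 to 9.68 and from 10.72 to 11.05, with Tie1 rising 4.44-fold, Egfl7 1.88-fold and Vwf 2.28-fold. Vwf lost its call without EGFP-negative replicate 1 (adjusted p = 0.050). With 6 of its 12 genes under the ceiling, the endothelial sum does not tell whether endothelial cells were present. This sum was higher, and the progenitor and mature cell sums lower, in the EGFP-positive arrays in which Igf2r, Grb10 and Plagl1 rose. These directions held without any single gene of the lists, and their part in those rises was not tested.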

How the data were processed

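Gene expression was measured in 6 RNA samples, each on 1 Affymetrix mouse array. The deposited log2 values, 1 for each probe set and array, were made by the authors with RMA, per the submitters' processing notes, which corrects background, quantile-normalizes arrays and summarises probes. Its version was not given in the sources used here. RNA was amplified from the 3' end, per the labels' protocols. Quantile normalization removes differences in total RNA per cell.

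The table held 45101 probe sets, 64 of them controls. GEO's platform annotation gave 1 gene for 34945, several for 932 and none in the table used here for 9160. Both groups were compared by limma 3.58.1 under R 4.3.3 with lmFit and eBayes (6 arrays, no covariate), two-sided, with Benjamini-Hochberg adjustment over 18192 genes or 45037 probe sets. The script was tested on simulated data. Arrays below the bacterial control ceiling of 3.61 were set to it in folds, which are then lower bounds. Fold changes of named genes are of lead probe sets.

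The members and lists were chosen with earlier results of these data known. The named genes were all members and, from each other list, up to 4 rises and 4 falls with the smallest p, and the 3 brightest markers of each marker list. Alternatives were a replicate block, other scalings, filters, eBayes options, array weights, other probe set choices and leaving out each array. Marker sums without each gene and calls by region under each alternative were added after seeing the data. Arrays carry no read depth, and 3 arrays per group limit the precision.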

Additional observations from a re-analysis of the deposited data

How the results depend on the processing

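The rises of Igf2r and Plagl1 kept their direction and call under every alternative that gave a value, with differences of 0.69 to 1.00 and 1.58 to 4.06. Plagl1 was not tested among genes above the median gene because it lies below it. Grb10 lost its call only with the mean of its probe sets or the most variable one. With either of these choices 1 of the 9 genes was lower, Dlk1, in place of 0. With the mean or the most variable probe set 2 imprint maintenance genes rose in place of 4, and with the most variable one 3 IGF genes rose in place of 6. Among genes above the median gene 5 other imprinted genes fell in place of 8, with 22 of the 51 tested. Leaving out each array in turn gave 1 to 5 imprint maintenance genes higher, and 3 of the 9 imprinted growth genes higher each time. Besides the fewer genes tested with the filter, the cause of these changes was not tested.

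Replicate numbers are shared between the groups. Across probe sets, deviations of same-numbered arrays from their group means correlated by 0.01, -0.02 and 0.00, so no array-wide shift was shared by number. Such a correlation cannot tell whether same-numbered arrays came from the same culture or mouse, which the labels do not give. With the replicate number as a block, 2361 genes were higher and 2539 lower, in place of 2913 and 3132, and 1 imprint maintenance gene rose in place of 4. The block left the calls of Igf2r (adjusted p = 0.0060), Grb10 (0.038) and Plagl1 (0.0088) in place. Signal limits what can be said of Igf2, Peg3, H19 and most Meg3 and Ndn probe sets, which lay at or under the bacterial controls.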

Other observations

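Imprinted genes outside the named ones also rose in EGFP-positive cells. They were chosen after their values were seen. Peg10, a retrotransposon-derived gene beside Sgce, read 8.31, 8.58 and 8.65 on EGFP-negative and 9.62, 9.92 and 10.07 on EGFP-positive arrays, a 2.56-fold rise (limma adjusted p = 0.0011). Nap1l5, a relative of nucleosome assembly proteins, rose 2.82-fold, from 4.12 ± 0.22 to 5.62 ± 0.39 (SD, n = 3, adjusted p = 0.0030), and Gab1, a docking protein of growth factor receptors, rose 2.33-fold, from 6.88 ± 0.27 to 8.10 ± 0.10 (adjusted p = 0.0015). Nnat, a small membrane proteolipid, was at least 2.21-fold higher, from 3.20 ± 0.39 to 4.76 ± 0.52 (adjusted p = 0.010). Cdkn1c, an inhibitor of cyclin-dependent kinases and known target of Plagl1, read 3.64, 3.49 and 3.09 on EGFP-negative and 4.65, 5.93 and 5.77 on EGFP-positive arrays, at least 3.56-fold higher (adjusted p = 0.0060). The calls of these 5 genes held without any single array. All EGFP-positive arrays lay above all EGFP-negative arrays in each. Over all genes that share was 23.8%, but these 5 were picked for their rises, so the separation adds no support.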
